A study of Rattus norvegicus with 6 samples.

Results

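Collagens, laminins and integrins form the extracellular scaffold of the kidney and the receptors that hold cells to it. The genes described here are a set chosen with earlier results of these data known. They were taken by RefSeq symbol, as collagen chains (Col, a number, a, a number), laminin chains (Lama, Lamb and Lamc) and integrin subunits (Itga and Itgb followed by a digit, L, M, V or X). RefSeq lists 86 rat genes of such a name, and 48 had at least 1 probe matched by accession, with 103 probes in all. Of these, 44 were detected, meaning that the scanner software flagged a probe as above background in all 3 animals of a group, out of 31179 genes tested in the series. The other 4 were Col13a1 and Itgb1bp2, above background on 0 arrays, Itgam on 2 of 6, and Itgb3, whose 2 probes were so on 1 array each. No probe was matched for 38 genes, among them Col4a2, Col4a3, Col4a5, Col6a1, Lamb1, Itga3 and Itgav, which were not analysed here. The symbol rule also took in Itgb1bp1 and Itgb3bp, which encode integrin-binding proteins, and Itgbl1, which encodes an integrin-like secreted protein. These are given apart from the 14 detected integrin subunits.

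Renal cortex was taken from 6 male Sprague-Dawley rats, 5 weeks old when bought, with 1 Agilent 1-colour array per animal. For 4 weeks 3 rats received corn oil (vehicle) and 3 received benzyl acetate, a fragrance and flavour ester, at 1000 mg/kg/day; the dosing protocol does not name corn oil for the second group. Values are log2 signals relative to the 75th percentile of the array, and differences are benzyl acetate minus vehicle on that scale. The number of arrays limits the precision, and this scaling hides any shift common to the bulk of the genes.

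Per array, 69.0% to 72.0% of probes passed the background flag. Benzyl acetate replicate 3 stood apart on the first principal component, at 50.1 against -24.4 to -0.23 for the others, and had the lowest 75th percentile of signal, 883. Vehicle replicate 1 was the only array on its slide. All 4 proximal tubule markers and all 5 podocyte markers of the lists used were detected.

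Basement membranes are thin sheets on which epithelial and endothelial cells rest. They are built from a laminin network, whose units join an alpha, a beta and a gamma chain, and a collagen 4 network crosslinked to it. The glomerular filter and every tubule depend on them. Interstitial matrix lies between tubules and vessels, is made largely by fibroblasts, and consists of fibrils of collagens 1, 3 and 5 with collagen 6 filaments beside them. Integrins are pairs of an alpha and a beta subunit that bind these proteins, or, on leukocytes, bind ligands on other cells.

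The promoters of a basement membrane chain and an interstitial chain are shown because both chains were measured and they stand for the matrices compared. Col4a1 and Col4a2 are transcribed in opposite directions from starts 76 bases apart, so the stretch between them is all that separates the pair. Both sequences are from RefSeq (GRCr8), in the direction of the named gene and ending at the base before its start. They are chr16:84885521-84885596 on the plus strand for Col4a1 and the 250 bases chr4:33518307-33518556 on the plus strand for Col1a2. Capitals mark the letters GGGCGG, called a GC box. They also mark CCAAT, named after its letters, and TATAAA, the core of a TATA box. Each was read on both strands.
Col4a1: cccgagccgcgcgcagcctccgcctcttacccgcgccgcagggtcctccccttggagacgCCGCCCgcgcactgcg
Col1a2: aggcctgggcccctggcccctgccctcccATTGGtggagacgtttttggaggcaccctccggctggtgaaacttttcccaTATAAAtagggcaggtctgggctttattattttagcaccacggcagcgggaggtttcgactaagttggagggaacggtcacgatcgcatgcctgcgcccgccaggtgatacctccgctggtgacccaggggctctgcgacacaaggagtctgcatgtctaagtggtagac
The Col4a1 stretch held 1 GC box and neither of the other motifs, while the Col1a2 stretch held 1 CCAAT box, 1 TATA box and no GC box. These stretches differ in length, at 76 and 250 bases. In equal windows of 300 bases, from 250 before to 50 after the start, Col4a1 had 2 GC boxes, 2 CCAAT boxes and no TATA box. The Col1a2 window had 1 CCAAT box, 1 TATA box and no GC box. Over such windows a GC box was present in 6 of 10 basement membrane genes and 4 of 7 interstitial genes, against 33.1% of all 33469 promoters. A TATA box was present in 0 of 10 and 1 of 7, against 14.2% of all promoters, and a CCAAT box in 3 of 10 and 3 of 7, against 37.5%. The promoter table had an entry for 35 of the 48 genes. A match describes the letters only.

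Whether transcripts of these scaffold genes differed after 4 weeks of dosing was the question put to the arrays. None of the 44 tested genes passed. Limma called 0 of 44 at an adjusted p under 0.05 (Benjamini-Hochberg over all genes; 0% of all genes were called), and their adjusted p-values ran from 0.675 to 0.988. Before adjustment, 4 of the 44 genes were under 0.05 (6.74% of all genes were), all 4 on the lower side, where 2.92% of all genes lay, and 0 on the higher side, where 3.82% lay. The groups did not overlap for 5 genes, all lower with benzyl acetate (Lama1, Itgb1, Itgb4, Itgb6 and Itgb7), against 5.31% of all genes lower and 7.51% higher without overlap. As a share of the 44 genes, those 5 are 11.4%, and 0 were higher without overlap. In the second probes of Itgb1 and Itgb4 the groups did overlap, and Lama1, Itgb6 and Itgb7 had 1 probe each. The typical 95% interval reached 0.43 log2 to either side. It lay inside a 2-fold difference for 37 of 44 genes (84.1%, against 91.5% of all genes) and inside a 1.5-fold difference for 24 (54.5%, against 73.9%).

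**Figure D1:**
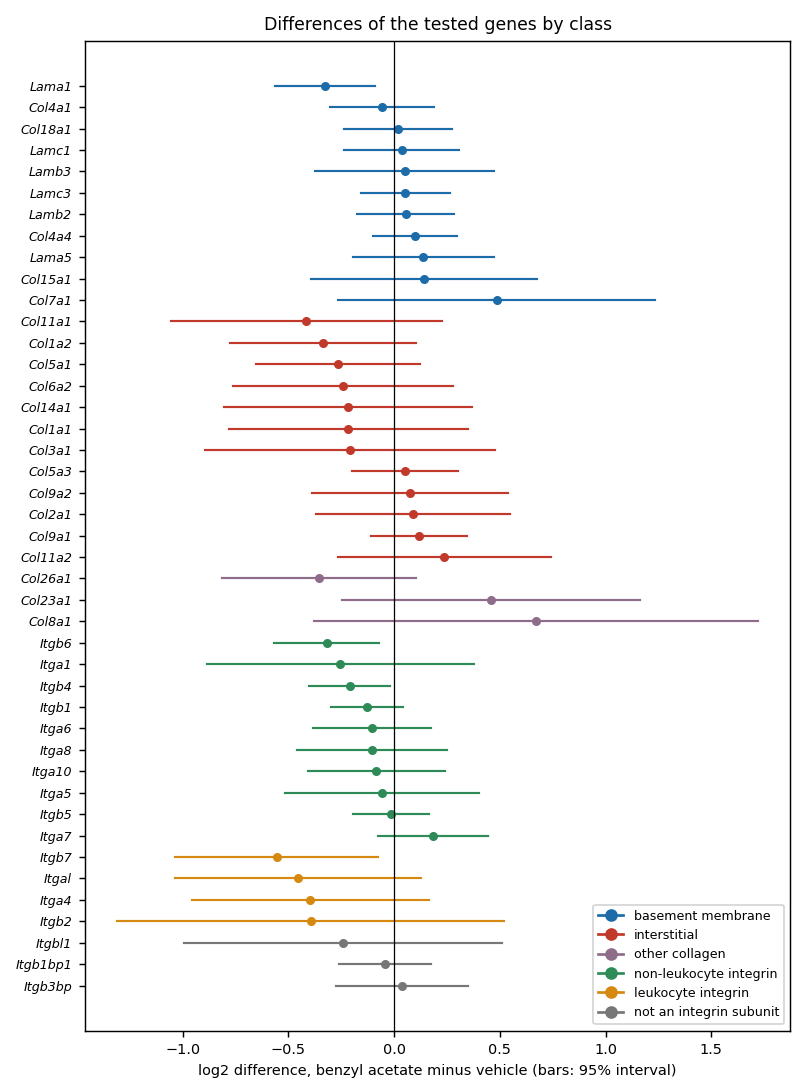
Log2 difference, benzyl acetate minus vehicle, for 43 of the 44 tested genes (points) with its 95% interval (bars), coloured by class. Only 4 intervals exclude 0, those of Lama1, Itgb4, Itgb6 and Itgb7, and the leukocyte integrins all lie to the left.

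Basement membrane genes stood near or slightly above 0. Of the 12 tested, 9 were higher and 3 lower, with a median log2 difference of 0.052, against 0.012 over all genes. The split was not firm: it was 6 to 6 with the mean of the detected probes or the probe of lowest signal (medians 0.025 and 0.0097). It was 5 higher to 7 lower, with a median of -0.014, without vehicle replicate 1. The slide as a block gives the same differences. Collagen 4 chains form the meshwork of the membrane. The Col4a1 signal was 4.21, 4.21 and 4.32 in vehicle replicates 1 to 3 and 4.35, 4.03 and 4.18 in benzyl acetate replicates 1 to 3. Those ranges overlapped, and the difference was -0.058 (95% interval -0.30 to 0.19). The other 3 detected probes of Col4a1 gave -0.0091 to 0.026. For Col4a4, a chain of the glomerular collagen 4 network, the arrays read 2.54, 2.69 and 2.51 with vehicle and 2.60, 2.72 and 2.71 with benzyl acetate. Its difference was 0.098 (-0.099 to 0.295), and its second probe gave 0.084. Both intervals lie well inside a 1.5-fold difference.

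Laminin chains of the mature glomerular and tubular membranes were close to level. Lama5, the alpha chain of the adult glomerular laminin, read 2.16, 1.90 and 2.23 with vehicle and 2.44, 2.07 and 2.19 with benzyl acetate, a difference of 0.14 (-0.19 to 0.47). Its beta partner Lamb2 read 1.26, 1.43 and 1.43 against 1.44, 1.54 and 1.30, and differed by 0.054 (-0.17 to 0.28). The gamma chain Lamc1, shared by most laminins, read 2.01, 2.09 and 2.26 against 2.33, 2.03 and 2.11 and differed by 0.037 (-0.24 to 0.31). In each of the 3 chains the groups overlapped. Lama1 was the exception among the laminins. This alpha chain, typical of embryonic membranes and retained in tubules, read -1.44, -1.38 and -1.49 with vehicle and -1.79, -1.91 and -1.60 with benzyl acetate, so that each treated animal lay below each vehicle animal. The group means were -1.44 ± 0.057 (SD, n = 3) and -1.77 ± 0.15 (SD, n = 3), a 1.26-fold difference of -0.33 (-0.56 to -0.093). It had the lowest p of all 44 genes and did not pass in limma (adjusted p = 0.675, and 0.26 to 0.874 over the alternatives). Lama1 had 1 probe.

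The epithelial laminin chain Lamb3 (0.051) and the Lamc3 chain (0.052) had intervals reaching 0. A second detected probe of Lamc3 gave -0.40, in the other direction. Col18a1, whose fragment is endostatin, differed by 0.018 and Col15a1, its relative in the membrane zone, by 0.14 (-0.39 to 0.67). Col7a1, the anchoring fibril collagen, read -3.92, -3.37 and -3.88 with vehicle and -2.77, -3.09 and -3.85 with benzyl acetate. That is a difference of 0.485 (-0.26 to 1.23), with benzyl acetate replicates 1 and 2 high and replicate 3 within the vehicle range. It was 0.223 to 0.792 over the alternatives.

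Interstitial collagens lay mostly below 0, and without a gap between the groups for any of them. Beyond the fibril and filament collagens named above, the class held Col2a1, Col9a1, Col9a2, Col11a1, Col11a2 and Col14a1. Of the 12 tested, 5 were higher (Col2a1, Col5a3, Col9a1, Col9a2 and Col11a2) and 7 lower, with a median of -0.21. This median rested on single animals, since leaving out vehicle replicate 2 gave -0.071. Leaving out the second benzyl acetate animal gave -0.042. Collagen 1 is the main fibril protein. Its alpha 1 chain Col1a1 read 0.66, 1.19 and 1.33 with vehicle and 1.19, 0.59 and 0.74 with benzyl acetate, a difference of -0.22 (-0.78 to 0.35). The alpha 2 chain Col1a2 read 3.50, 3.89 and 3.73 against 3.72, 3.19 and 3.20 and differed by -0.34 (-0.77 to 0.10). For Col3a1, the chain of collagen 3, the values were 1.23, 1.84 and 1.51 against 1.85, 0.89 and 1.21, with a difference of -0.21 (-0.90 to 0.48). In all 3, benzyl acetate replicate 1 was close to the upper vehicle animals. Replicates 2 and 3 were below the lowest vehicle animal, except replicate 3 in Col1a1, which lay just above it. Leaving out benzyl acetate replicate 2 turned the Col3a1 difference to 0.0063.

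Col6a2, a chain of the filament collagen 6, read 2.01, 2.52 and 2.46 against 2.47, 1.92 and 1.89 and differed by -0.24 (-0.76 to 0.28). Col5a1, which starts and limits collagen 1 fibrils, read -0.63, -0.48 and -0.41 against -0.44, -0.96 and -0.91 and differed by -0.27 (-0.65 to 0.12). These chains shared their 3 highest arrays with collagen 1, which is called an array order here, whatever the ranking within the 3. Vehicle replicates 2 and 3 and benzyl acetate replicate 1 were the 3 highest arrays for 5 of the 12 interstitial genes (Col1a1, Col1a2, Col3a1, Col5a1 and Col6a2). That order was seen in 1 of the 12 basement membrane genes (Col4a1) and also in Col26a1 and Itgb2. It was found in 8 of the 44 tested genes (18.2%), against 5.61% of all genes. It cuts across the treatment groups, and it was noticed in these values, so it is given without a test. Of the remaining interstitial genes, Col11a1 differed by -0.42 (-1.06 to 0.23) and Col14a1 by -0.22, while Col11a2 (0.24), Col9a1 (0.12), Col2a1 (0.087), Col9a2 (0.075) and Col5a3 (0.050) were on the other side. Col9a1 read -2.91, -2.68 and -2.81 with vehicle and -2.80, -2.60 and -2.66 with benzyl acetate, with overlapping groups.

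**Figure D2:**
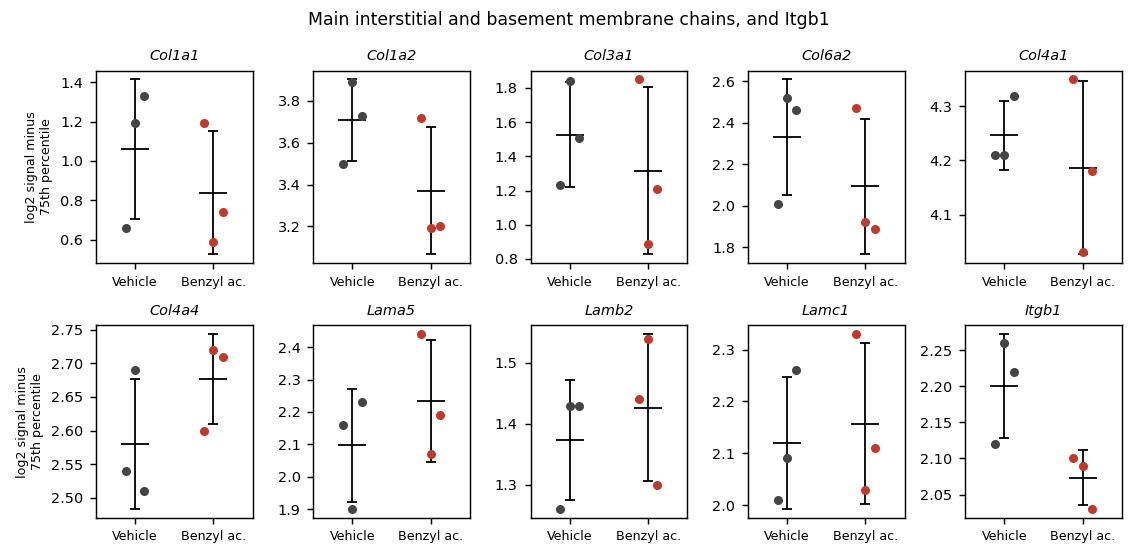
Log2 signal relative to the 75th percentile of the array for 10 genes, with a separate axis range in each panel: points are animals, replicates 1 to 3 from left to right, and horizontal bars with whiskers are the mean ± SD (n = 3 per group). In Col1a1, Col1a2, Col3a1 and Col6a2 benzyl acetate replicate 1 lies among the upper vehicle animals, whereas in Itgb1 the 3 treated animals lie below the 3 vehicle animals.

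The animals varied more in the interstitial genes than in the basement membrane genes. The median SD within a group was 0.282 log2 over the 12 interstitial genes and 0.135 over the 12 basement membrane genes, against 0.140 over all genes. Set against each other on each array, the mean deviation of the interstitial genes minus that of the basement membrane genes was 0.000, 0.137 and 0.103 in vehicle replicates 1 to 3. With benzyl acetate it was -0.057, -0.153 and -0.027. The group means were 0.080 ± 0.071 (SD, n = 3) and -0.079 ± 0.066 (SD, n = 3). These values do not overlap, but the gap between vehicle replicate 1 and benzyl acetate replicate 3 is smaller than the SD of either group. The median of the interstitial genes minus that of the basement membrane genes was -0.26, and -0.30 to -0.089 over the alternatives (-0.129 and -0.089 when vehicle replicate 2 or benzyl acetate replicate 2 was left out). No test was made of it, since the genes were grouped with earlier results known. In bulk tissue, fewer cells of a type and less RNA per cell cannot be told apart. Of the fibroblast and pericyte markers, 3 of 4 were detected (Lum was not), all 3 were lower, and their summed log2 level ran from 3.15 to 3.93 with vehicle and from 3.16 to 3.44 with benzyl acetate. Their part in the result was not tested.

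**Figure D3:**
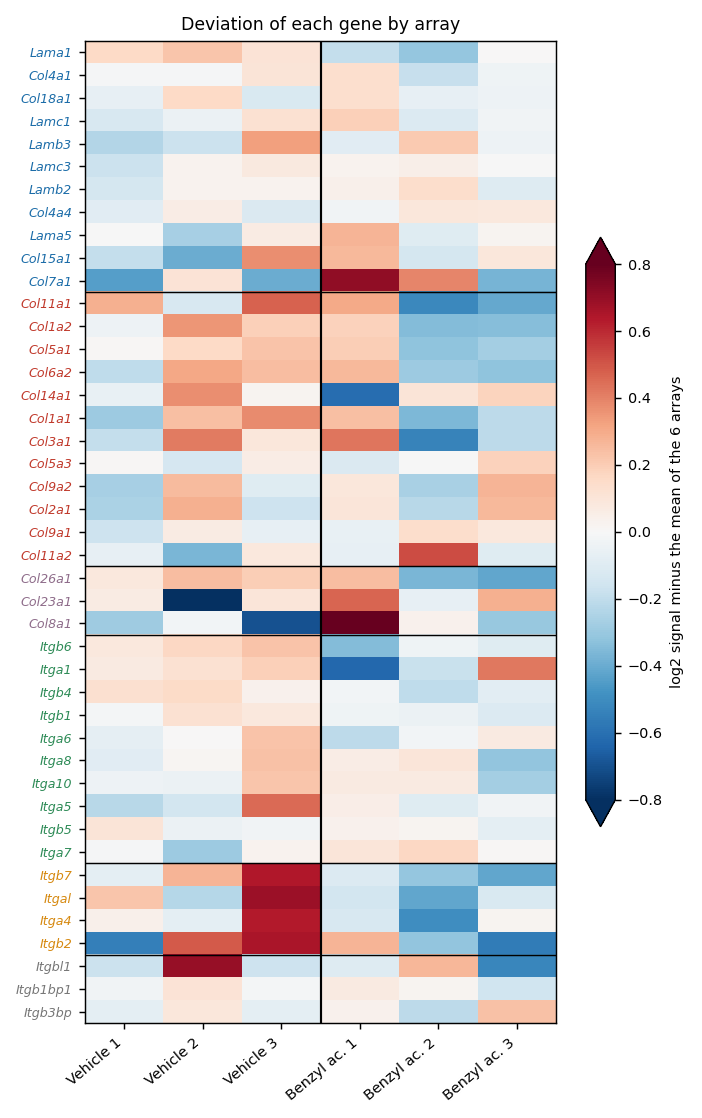
Each row is 1 of 43 tested genes and each column an array, and the colour is the log2 signal minus the mean of the 6 arrays (red above, blue below; the scale ends at 0.8). Gene names are coloured by class as basement membrane (blue), interstitial (red), other collagen (purple), non-leukocyte integrin (green), leukocyte integrin (orange) and not an integrin subunit (grey). Col1a1, Col1a2, Col3a1, Col5a1 and Col6a2 are red in vehicle replicates 2 and 3 and benzyl acetate replicate 1.

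Of the collagens of other kinds, Col8a1, a network-forming collagen of vessel walls, had the highest difference of the 44 genes and a wide interval. It read -4.61, -4.35 and -5.02 with vehicle and -3.05, -4.29 and -4.63 with benzyl acetate, a difference of 0.67 (-0.38 to 1.72). Benzyl acetate replicate 1 alone was high, and the difference was 0.20 without it and 0.397 with normexp. Col23a1, a transmembrane collagen, read -5.44, -6.35 and -5.41 against -5.04, -5.57 and -5.22. Its difference was 0.46 (-0.25 to 1.16), and the probe was well above background on 2 of 3 vehicle arrays and on all 3 with benzyl acetate. The Col23a1 difference was 0.137 with normexp and 0.151 without vehicle replicate 2. Col26a1 differed by -0.36 (-0.81 to 0.10), and its second detected probe gave 0.16.

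Integrin subunits were lower in 13 of 14, with a median of -0.17, while 46% of all genes were lower. No single subunit passed over all genes. The count lower was 11 with normexp background correction, 11 when vehicle replicate 3 was left out, 10 when the third benzyl acetate animal was, and 12 or 13 in the other alternatives. Among the receptors of collagen, Itga1 read 5.58, 5.63 and 5.70 with vehicle and 4.88, 5.33 and 5.93 with benzyl acetate. The treated animals lay on both sides of the vehicle animals, and the difference was -0.25 (-0.89 to 0.38). It was -0.0049 without benzyl acetate replicate 1 and -0.53 without benzyl acetate replicate 3. Itga10, also a collagen receptor subunit, differed by -0.084.

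Among the receptors of laminin, Itga6 read 0.34, 0.41 and 0.64 with vehicle and 0.20, 0.39 and 0.48 with benzyl acetate, a difference of -0.11 (-0.39 to 0.17). Its beta partner in hemidesmosomes, Itgb4, read 0.65, 0.68 and 0.56 against 0.50, 0.32 and 0.44, without overlap. Itgb4 differed by -0.21 (-0.40 to -0.019), with adjusted p = 0.717 in limma and 0.33 to 0.906 over the alternatives. Its second probe gave -0.15, with the groups overlapping. Itga7, the other detected alpha subunit classed here as a laminin receptor, was the only subunit on the higher side. It read 2.88, 2.60 and 2.92 against 2.99, 3.06 and 2.90, a difference of 0.18 (-0.078 to 0.445) with the groups overlapping, and 0.085 without vehicle replicate 2.

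Itgb1, the beta subunit of most matrix receptors of renal cells, read 2.12, 2.26 and 2.22 with vehicle and 2.10, 2.09 and 2.03 with benzyl acetate. The groups did not overlap, by a gap smaller than the SD of either group. The difference was -0.13 (-0.30 to 0.042), a 1.09-fold difference (-0.082 with normexp). A second probe gave -0.10, with the groups overlapping. Itgb6 pairs with the alpha v subunit on epithelial cells and can release active TGF-beta from its latent complex. It read 3.63, 3.71 and 3.77 with vehicle and 3.20, 3.51 and 3.45 with benzyl acetate, so all 3 treated animals were lower. With group means of 3.70 ± 0.067 (SD, n = 3) and 3.38 ± 0.16 (SD, n = 3), the difference was -0.32 (-0.57 to -0.070), or 1.25-fold. Itgb6 did not pass in limma (adjusted p = 0.70, and 0.272 to 0.877 over the alternatives) and had 1 probe. Itga8, found on mesangial cells, read -0.52, -0.41 and -0.19 against -0.37, -0.33 and -0.74, with overlap and a difference of -0.11 (-0.46 to 0.25). Itgb5 (-0.015) and Itga5 (-0.056) stood near 0.

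**Figure D4:**
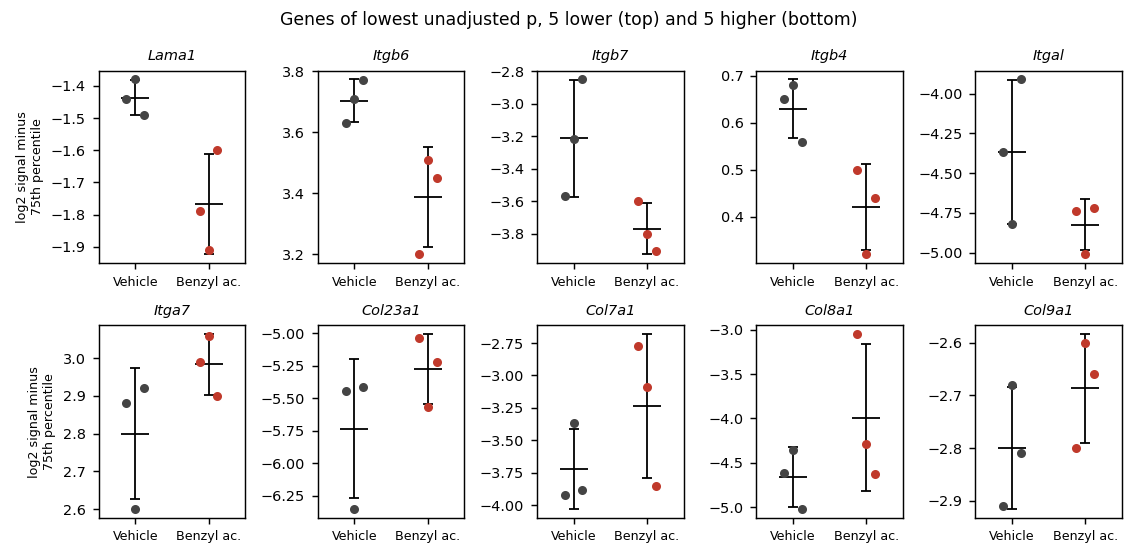
Log2 signal relative to the 75th percentile of the array for the 5 genes of lowest unadjusted p on the lower side (top row) and the 5 on the higher side (bottom row), with a separate axis range in each panel; points are animals, and bars with whiskers are the mean ± SD (n = 3 per group). The groups are apart for Lama1, Itgb6, Itgb7 and Itgb4 and overlap for Itgal and for the 5 genes of the bottom row.

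Leukocyte integrins had the lowest differences as a class, with 4 of 4 lower and a median of -0.43. Itgb7, the beta subunit of the gut-homing receptor of lymphocytes, read -3.57, -3.22 and -2.85 with vehicle and -3.60, -3.80 and -3.91 with benzyl acetate, without overlap. Its difference was -0.56 (-1.04 to -0.076), or 1.47-fold, and did not pass in limma (adjusted p = 0.709, and 0.299 to 0.891 over the alternatives). With normexp the Itgb7 difference was -0.299, and this gene had 1 probe. Itgal, the alpha subunit of LFA-1, read -4.37, -4.82 and -3.91 against -4.74, -5.01 and -4.72 and differed by -0.46 (-1.04 to 0.13), or by -0.077 with normexp and -0.226 without vehicle replicate 3. Its partner Itgb2, common to the leukocyte integrins, read -2.08, -1.04 and -0.88 against -1.26, -1.85 and -2.09 and differed by -0.40 (-1.31 to 0.52), or -0.769 to -0.169 over the alternatives. Vehicle replicate 3 was the highest array for all 4, Itga4 (-0.40) included. Without it the median was -0.20, and with normexp background correction -0.257. The T and NK cell markers had 5 of 6 detected (Cd3e was not), all 5 lower. Cd2 was not well above background on any treated array, so it entered through the vehicle group, where it was high. Vehicle replicate 3 had the highest summed level of these markers, 2.14 log2. The other vehicle arrays had 1.02 and 1.12, and the treated arrays 0.745 to 1.00. All 4 macrophage markers were lower too, with summed levels of 3.92 to 4.30 with vehicle and 3.65 to 4.26 with benzyl acetate. The part of these cells in the integrin values was not tested.

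**Figure D5:**
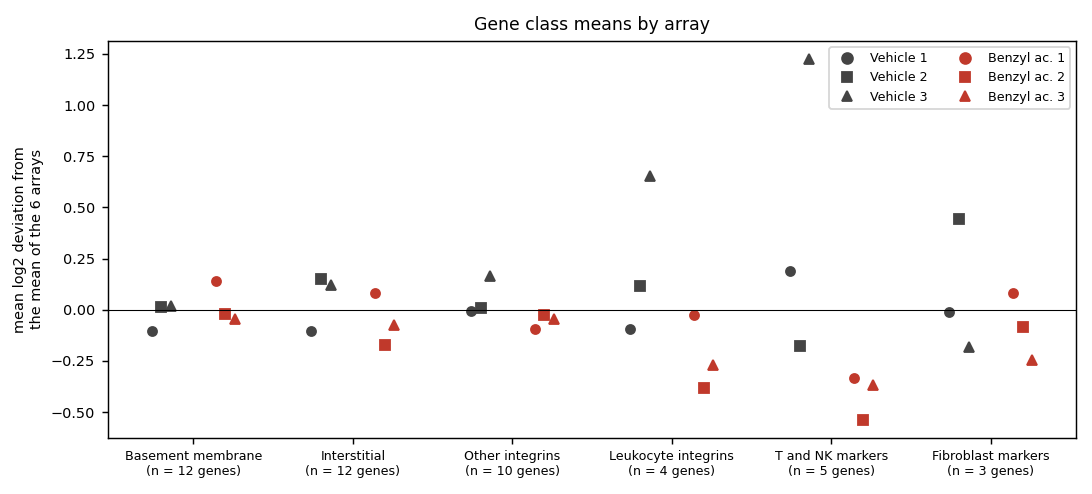
Mean log2 deviation from the mean of the 6 arrays, for 4 gene classes and 2 marker lists (other integrins are those not restricted to leukocytes), with 1 point per array (grey vehicle, red benzyl acetate, shape by replicate number). Vehicle replicate 3 is highest for the leukocyte integrins (0.654) and the T and NK cell markers (1.23), and the basement membrane points lie between -0.10 and 0.14.

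The 3 proteins that are not integrin subunits differed by -0.24 (Itgbl1), -0.042 (Itgb1bp1) and 0.038 (Itgb3bp), with wide overlap.

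The wider matrix programme was read from 6 lists of other genes, in none of which a gene passed over all genes. Of the basement membrane partners 4 of 8 tested were higher, with a median of 0.0056. Agrn, the heparan sulfate proteoglycan agrin, read 4.54, 4.38 and 4.53 with vehicle and 4.82, 4.67 and 4.79 with benzyl acetate, without overlap, and differed by 0.27 (0.073 to 0.467; adjusted p = 0.677 in limma). The Agrn difference rested on its brightest probe, with 0.142 for the mean of its detected probes and 0.0625 for the probe of lowest signal. Tinagl1 differed by 0.22, or 0.0616 with its probe of lowest signal. For collagen synthesis and assembly 12 of 19 were lower, with a median of -0.091. The lysyl oxidase relatives Loxl4 (-0.45, with an interval of -0.67 to -0.24) and Loxl3 (-0.34) had the lowest p there. Loxl4 was well above background on 3 vehicle arrays and 1 treated array, so it entered through the group where it was high. With normexp the differences were -0.024 for Loxl4 and -0.054 for Loxl3. In matrix turnover 8 of 11 were lower, with a median of -0.097. The gelatinase Mmp2 differed by -0.29 (-0.85 to 0.27), or -0.486 to -0.145 over the alternatives.

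Interstitial partners were lower in 9 of 12, with a median of -0.15. Tnc, the wound matrix protein tenascin C, differed by -0.97 (-1.90 to -0.043), and Spp1, osteopontin, by 0.38. Tnc was well above background on 3 vehicle arrays and 2 treated arrays, so it too entered through the vehicle group. It differed by -0.30 with normexp and by -0.56 without vehicle replicate 3. Fibrogenic signals were balanced at 7 of 14, with a median of 0.0077. The TGF-beta receptor Tgfbr2 read -1.55, -1.68 and -1.45 with vehicle and -1.31, -1.31 and -1.17 with benzyl acetate and differed by 0.29 (0.077 to 0.511), and the latent TGF-beta binding protein Ltbp1 differed by 0.19. Integrin adhesion effectors were lower in 10 of 17, with a median of -0.010. Tns1, the actin linker tensin 1, read -0.57, -0.36 and -0.22 against 0.16, 0.06 and 0.13 and differed by 0.50 (0.24 to 0.76), while Fermt1, kindlin 1, differed by -0.36. Their probes of lowest signal gave 0.27 and -0.141. Adjusted p-values in limma of these 11 genes ran from 0.609 to 0.837. Of the 81 genes tested over the 6 lists, 3 were higher and 3 lower before adjustment (7.41% under 0.05, against 6.74% of all genes).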

How the data were processed

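RNA of each animal, labelled with Cy3, was read on its own Agilent array. Scanner tables deposited by the authors hold intensity values made with Agilent Feature Extraction 10.7 (the submitters' processing notes name it). The processed signal in them has background removed and, per the file headers, no scaling across arrays. Background, saturation and outlier flags, of 0 or 1, come from the same tables, per the file headers. The authors' separate value table, of intensity values proportional to that signal, was an alternative.

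From each log2 processed signal the 75th percentile of its array was subtracted, taken over 61537 probes that are not controls. Spots flagged as outliers were left out, and 0 were saturated. RefSeq (GRCr8) named 28206 probes by accession. The detected probe of highest mean signal stood for its gene; several were detected for 28 of the 44 genes, and in 10 their directions differed. Limma 3.58.1 (R 4.3.3) compared the groups with no block, after being tested on simulated data.

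The genes, classes and lists were chosen with earlier results of these data known. Values in every animal are given for the main chains, the 5 genes of lowest p in each direction and genes not detected throughout a group. Of each pathway list the 2 genes of lowest p are named. Of the genes counted, 2 are not reported here. Col5a1, Col6a2, the pathway genes with values per animal and the genes of one array order were picked with their values seen. Other cell types were read from 12 marker lists. Same-numbered animals were not treated as pairs, since no pairing is stated for the series. Their deviations from the group means correlated at -0.108, 0.008 and 0.001. Animals of different number correlated at -0.108 to 0.121, so these values do not decide the matter. The closing section gives the effect of 16 alternatives: blocks, background correction, scaling, filters, probe rules, the value table and each animal left out.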

Additional observations from a re-analysis of the deposited data

How the results depend on the processing

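No collagen, laminin or integrin gene passed over all genes in any of the 16 alternatives. With the replicate block 5 genes had an unadjusted p under 0.05 in place of 4. The medians kept their values, which that block cannot move when each replicate number has 1 animal per group. That count ran from 2 (vehicle replicate 2, vehicle replicate 3 or benzyl acetate replicate 2 left out) to 8 (benzyl acetate replicate 1 left out). The interstitial median ran from -0.316 to -0.0422 when an animal was left out, and was -0.0709 without vehicle replicate 2. Over all genes, limma called 2 with normexp, 2 without benzyl acetate replicate 1 and 4 without benzyl acetate replicate 3. Among 861 single-gene values 57 changed sign, in 20 genes, none of which had a call to lose. These values are not all separate checks. The replicate block and the value table, proportional to the same signal, could hardly change a sign. Vehicle replicate 1 was alone on its slide, so the slide as a block repeated the differences found without that animal.

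With the slide as a block the reversed differences were -0.0106 for Col18a1, -0.0167 for Col2a1, -0.0409 for Col9a2, 0.0302 for Itgb5, -0.0526 for Lamb3, -0.018 for Lamc1 and -0.0235 for Lamc3. With normexp they were -0.01 for Col18a1, 0.0848 for Itga10, 0.0257 for Itga5 and -0.162 for Lamc3, and with median scaling -0.011 for Col18a1. The mean of the probes gave -0.00406 for Col18a1, -0.0108 for Col2a1, -0.0207 for Col5a3, -0.0307 for Itgb3bp, 0.00638 for Itgb5, -0.0356 for Lamc1 and -0.173 for Lamc3. The probe of lowest signal gave -0.0261 for Col18a1, 0.16 for Col26a1, -0.109 for Col2a1, -0.0913 for Col5a3, -0.0991 for Itgb3bp, 0.0277 for Itgb5, -0.112 for Lamc1 and -0.398 for Lamc3. With an animal left out, the ranges that crossed 0 were -0.363 to 0.0305 (Col14a1), -0.0213 to 0.36 (Col15a1), -0.0438 to 0.101 (Col18a1), -0.0174 to 0.252 (Col2a1), -0.478 to 0.00634 (Col3a1), -0.138 to 0.0218 (Col4a1), -0.0314 to 0.118 (Col5a3) and -0.044 to 0.223 (Col9a2). For integrins and their partners they were -0.142 to 0.0301 (Itga10), -0.181 to 0.156 (Itga5), -0.182 to 0.0233 (Itga8), -0.0892 to 0.0254 (Itgb1bp1), -0.0706 to 0.15 (Itgb3bp), -0.0404 to 0.0302 (Itgb5) and -0.436 to 0.0466 (Itgbl1). For laminins they were -0.00374 to 0.119 (Lamb2), -0.0526 to 0.226 (Lamb3), -0.0495 to 0.108 (Lamc1) and -0.0235 to 0.103 (Lamc3). The cause was not tested. Itgam, Itgb3, Col13a1 and Itgb1bp2 lay too near background for a value.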

Other observations

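The array order seen in the collagen 1, 3, 5 and 6 chains, with vehicle replicates 2 and 3 and benzyl acetate replicate 1 highest, recurred in some lists of other matrix genes. It was present in 7 of 19 genes of collagen synthesis and assembly (Plod1, P4ha2, P3h3, Colgalt1, Pcolce, Loxl1 and Loxl2), in 5 of 11 of matrix turnover (Mmp2, Mmp14, Timp1, Timp4 and Ctsk) and in 4 of 12 interstitial partners (Sparc, Bgn, Fbn1 and Eln). Mmp2, which cleaves denatured collagen, read 0.69, 1.33 and 1.08 with vehicle and 1.13, 0.57 and 0.52 with benzyl acetate. Basement membrane partners had it in 3 of 8 (Nid2, Frem2 and Fbln1), fibrogenic signals in 1 of 14 and integrin adhesion effectors in 2 of 17. The membrane linker Nid2 read 0.57, 1.36 and 1.28 against 1.41, 0.92 and 0.42. Of the fibroblast and pericyte markers 1 of 3, Pdgfrb, had this order, and none of the podocyte, proximal tubule or endothelial markers tested did. Over all genes 5.61% had it. The order was picked from these values and was not tested.

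The markers of other cell types had these median log2 differences, benzyl acetate minus vehicle. Podocyte (0.051, 5 of 5 detected), proximal tubule (0.0074, 4 of 4), endothelial (0.031, 4 of 4) and mesangial markers (-0.010, 3 of 3) stood near 0. Smooth muscle markers were at 0.17 (3 of 4 detected) and urothelial markers at 0.37 (3 of 4). Fibroblast and pericyte markers were at -0.15 (3 of 4), collecting duct and medulla markers at -0.16 (3 of 3), fat markers at -0.093 (3 of 4) and macrophage markers at -0.15 (4 of 4). Among the fat markers Cidec differed by -0.093 and Adipoq by 0.34. Fabp4 was well above background on 3 vehicle arrays and 0 treated arrays, so it entered through the group where it was high. Its measured difference was -2.94 (-4.87 to -1.01), with an adjusted p of 0.669 in limma. Fabp4 read -3.95, -2.95 and -5.86 with vehicle and -8.04, -6.82 and -6.72 with benzyl acetate, so vehicle replicate 3 was well below the other vehicle animals. With treated values raised to the dimmest signal that passed the background flag, the computed Fabp4 difference was 3.01-fold. T and NK cell markers were at -0.50 (5 of 6 detected) and B cell markers at -0.44 (2 of 3). Of these, Cd2 was well above background on 3 vehicle arrays and 0 treated arrays, and Cd79b on 3 and 2. Both entered through the vehicle group, where Cd2 was high, while the groups overlapped for Cd79b.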
